A study of Mus musculus with 20 samples.

Results

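The genes of glycolysis and the pentose phosphate pathway were followed in microglia sorted from the mouse spinal cord before and after injury. The set was a fixed list of 40 symbols that covers sugar uptake, each step from glucose to lactate, the pentose phosphate branch, and a few regulators and side branches. Membership required only that the symbol stood in the deposited table, and 39 of the 40 did, out of 16810 genes. The remaining symbol, Pkm2, is an older name for a product of Pkm, which was in the table.

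All cells came from CX3CR1+/eGFP mice, in which one copy of the Cx3cr1 gene carries eGFP, so microglia and also blood monocytes fluoresce and non-injured controls carry the same allele as injured animals. Adult male mice had a lateral hemi-section (HS) or a full transection (FT) of the thoracic cord, and eGFP-high cells were sorted from a 1 cm segment around the lesion at 72 h, 1 week or 2 weeks. The non-injured (NI) group, labelled as the start point, gave an equivalent segment. There were 3 libraries in each group except HS at 1 week, which had 2 (20 in all), and the study's methods name more animals than libraries, with no map from one to the other, so libraries may pool animals and p-values measure the spread between libraries. Whole reads recovered from the table ranged from 3872918 to 34099232 per library. Values are the deposited normalised read counts, called CPM here, which the study's methods describe as normalised by library size. Column totals ran from 777426 to 1202186, so library size alone does not account for the scale. Any further factor per library is not named in the sources used here.

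The sorted cells had the defining markers of microglia. The 8 markers listed, among them Cx3cr1, P2ry12, Tmem119 and Csf1r, summed to between 18000 and 26400 CPM in NI and to between 13900 and 29300 CPM across the injured groups. Genes of the other cells that the sort could hold were also present, and the 9 monocyte markers summed to 53.5 to 57.2 CPM in NI against 563 to 751 CPM 72 h post-HS and 518 to 1180 CPM 72 h post-FT, with none of them at 0 in all libraries of a group. Most of that sum was Fn1, which was at 12.9 CPM in NI and at 546 and 597 CPM at 72 h. In bulk RNA a change in the number of cells of a type and a change in RNA per cell cannot be told apart. Replicate 1 of FT at 1 week stood apart from its group, with a median absolute log2 difference over 14051 genes of 0.53 and 0.54 from replicates 2 and 3, against 0.19 to 0.37 for all other replicate pairs. Results that rest on this library are given with and without it.

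Glycolysis splits glucose into pyruvate in the cytosol and yields ATP and NADH, and lactate dehydrogenase then turns pyruvate into lactate and regenerates NAD. The pentose phosphate pathway leaves glycolysis at glucose 6-phosphate, makes NADPH and ribose 5-phosphate, and returns carbon to glycolysis through transketolase and transaldolase. Macrophages and microglia are known to raise glycolysis when activated, and many glycolytic genes are targets of the hypoxia-inducible factor HIF-1, whose DNA-binding site has the core ACGTG or GCGTG.

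Because many members moved together, their upstream sequence was read from RefSeq promoter windows (build GRCm38.p6), and the 250 bases before each start site were searched for ACGTG and GCGTG on both strands, with overlapping matches such as the palindrome CACGTG counted as 1 site. Windows were found for 38 of the 39 genes (53 windows). The following 5 windows hold no annotated exon, and the capitals mark the searched letters. The first 3 belong to genes that rose at 72 h, and the last 2 to genes that did not pass the test at any time, the hexokinase gene Hk2 and the kinase gene Pdk1.
Slc2a6 (chr2:27027999-27028248, minus strand): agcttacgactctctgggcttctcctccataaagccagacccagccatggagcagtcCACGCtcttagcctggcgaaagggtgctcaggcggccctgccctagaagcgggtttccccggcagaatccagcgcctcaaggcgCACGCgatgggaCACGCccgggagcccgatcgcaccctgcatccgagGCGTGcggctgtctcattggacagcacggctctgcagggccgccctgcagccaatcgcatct
Pgk1 (chrX:106186850-106187099, plus strand): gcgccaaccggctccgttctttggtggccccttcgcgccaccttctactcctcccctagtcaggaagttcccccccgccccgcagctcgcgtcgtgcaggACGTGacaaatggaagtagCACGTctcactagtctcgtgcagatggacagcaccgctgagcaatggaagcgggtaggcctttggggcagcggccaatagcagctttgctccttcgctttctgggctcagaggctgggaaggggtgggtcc
Gapdh (chr6:125165774-125166023, minus strand): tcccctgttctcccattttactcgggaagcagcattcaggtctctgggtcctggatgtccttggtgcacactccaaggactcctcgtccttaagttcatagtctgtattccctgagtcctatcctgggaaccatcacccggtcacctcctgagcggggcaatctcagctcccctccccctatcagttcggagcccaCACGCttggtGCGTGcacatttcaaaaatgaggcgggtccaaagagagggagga
Hk2 (chr6:82774455-82774704, minus strand): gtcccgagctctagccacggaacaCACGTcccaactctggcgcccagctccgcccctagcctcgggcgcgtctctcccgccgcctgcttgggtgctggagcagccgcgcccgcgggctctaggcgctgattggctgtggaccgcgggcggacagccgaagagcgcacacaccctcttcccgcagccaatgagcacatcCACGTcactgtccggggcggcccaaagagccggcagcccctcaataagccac
Pdk1 (chr2:71872974-71873223, plus strand): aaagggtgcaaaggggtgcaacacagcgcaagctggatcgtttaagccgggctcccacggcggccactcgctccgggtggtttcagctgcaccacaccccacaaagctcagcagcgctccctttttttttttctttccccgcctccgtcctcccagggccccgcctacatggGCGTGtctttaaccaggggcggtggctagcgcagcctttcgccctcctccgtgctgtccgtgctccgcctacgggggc

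The letters occurred 4 times before Slc2a6, 2 times before each of Pgk1, Gapdh and Hk2, and 1 time before Pdk1. At least 1 match was present in 41 of the 53 member windows (77.4%), against 38.6% of 32851 windows of the same length over all genes. Member windows also held more CG pairs, with a median of 14 against 6, and 57.6% of the 7352 windows with 9 to 19 CG pairs (the middle range of the members) had a match. Among members that rose at 72 h, 14 of 17 had a match, as did 18 of the 21 others, so the letters did not set apart the genes that rose. A match is a stretch of letters and not a shown binding site.

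At 72 h after either lesion, most steps from glucose 6-phosphate to lactate had higher RNA, while hexokinases and the main glucose transporters did not pass the test. Calls required a Benjamini-Hochberg adjusted p under 0.05 in limma, adjusted over the whole table, together with a fitted change of 2-fold or more on the scale log2(CPM + 0.5). Of the 39 members, 16 were called higher 72 h post-HS (9.08% of all genes were called higher) and 1 lower (4.31% of all genes). At 72 h after FT, 15 were called higher (8.14% of all genes) and 1 lower (4.09%). The median log2 difference of the members was 0.83 after HS and 0.86 after FT, against -0.11 and -0.09 over all genes, and 31 of 39 members were positive in both. The 6 comparisons with NI share the same 3 control libraries.

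Fewer members were called at the later times. At 1 week, 3 members were called higher after HS (1.7% of all genes) and 6 after FT (2.86%), and 1 was lower in each (0.482% and 1.2%). At 2 weeks, 7 were higher after HS (2.43%) and 10 after FT (3.53%), with 1 lower in each (0.797% and 1.36%). The member medians were 0.39 and 0.34 at 1 week and 0.34 and 0.56 at 2 weeks, beside medians over all genes between -0.03 and 0.02. All members called higher later had also been called higher 72 h after the same lesion, except Hif1a after HS. The member called lower at each later time was Slc2a5, and at 72 h it was Eno2.

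**Figure D1:**
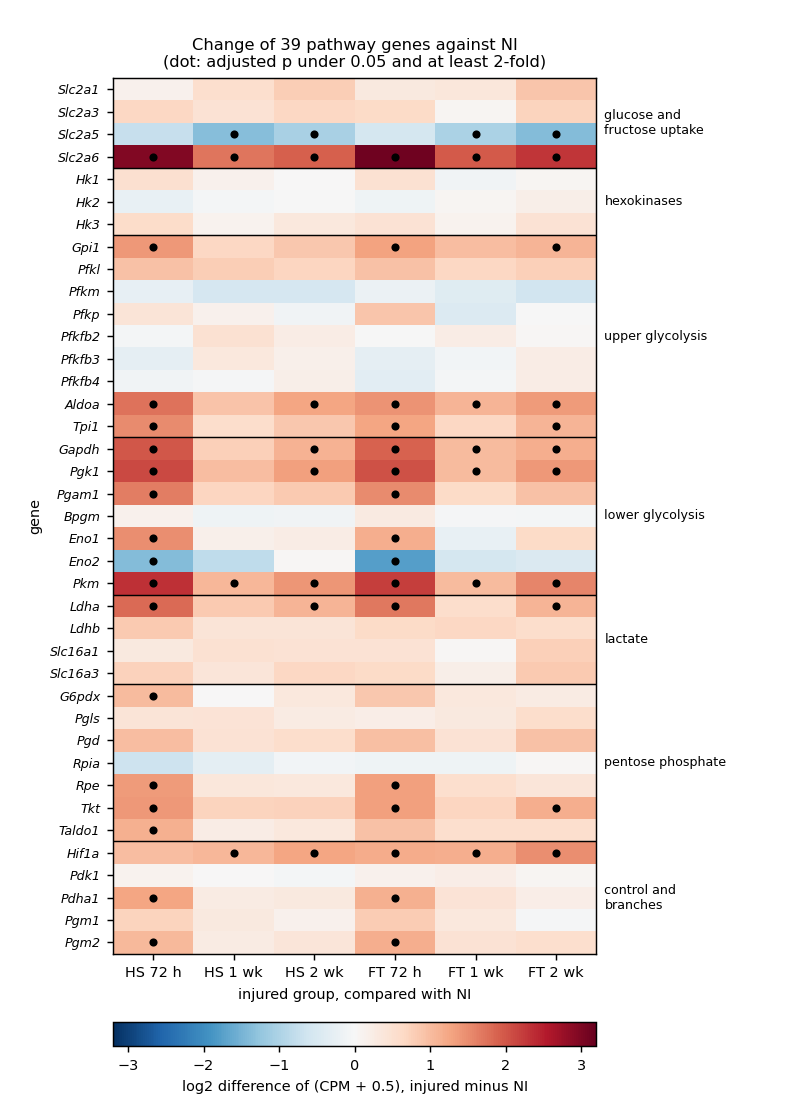
Heat map of the log2 difference of (CPM + 0.5), injured minus NI, for the 39 genes (rows, grouped by role) in the 6 injured groups (columns), with a dot where the adjusted p was under 0.05 and the change at least 2-fold. Dots are densest in the 72 h columns, with 16 rises after HS and 15 after FT, and Slc2a6 is called in all 6 columns.

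These counts depended on how libraries are scaled. The deposited columns sum to 777426 to 830481 in NI and to 878070 to 1202186 in injured groups. Setting every column to the same total also takes out any further factor per library. The median of all genes then moved to -0.52 72 h post-HS and -0.48 after FT, and the members' median was 0.32 and 0.39. Members called higher numbered 9 and 6, beside 3.68% and 3.69% of all genes. On that scale 16.2% of the genes called 72 h post-HS were higher, against 67.8% on the deposited scale.

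Uptake genes moved in both directions, with the largest rise of the 39 genes at 72 h in Slc2a6. Slc2a5 fell, and on the deposited scale its fall was called only at 1 and 2 weeks. Slc2a6 encodes GLUT6, a sugar transporter of internal membranes. Its level was 20.7, 23.7 and 22.9 CPM in the 3 NI libraries, 194, 166 and 172 CPM 72 h post-HS and 251, 148 and 205 CPM 72 h post-FT. All injured libraries, later ones included, were above all NI libraries. The log2 difference was 2.96 ± 0.25 (SE) after HS and 3.11 ± 0.25 after FT (limma adjusted p = 1.54e-08 and 8.13e-09). Later it was 1.70 (HS) and 1.97 (FT) after 1 week, then 1.90 and 2.28 after 2 weeks, and it was called in each of the 6 comparisons under every scaling tried.

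Slc2a5 encodes GLUT5, a fructose transporter that is a known microglial gene. It was at 609, 479 and 438 CPM in NI, 199 and 194 CPM at 1 week after HS, 221, 243 and 268 CPM at 2 weeks after HS, and 231, 187 and 164 CPM at 2 weeks after FT. Every library of these groups was below every NI library. At 72 h it was already at 263 to 346 CPM after HS, also below every NI library. After FT it was at 241 to 454 CPM at 72 h, which overlapped NI, and neither 72 h difference was called. The log2 difference was -1.36 ± 0.26 at 1 week after HS and -1.39 ± 0.24 at 2 weeks after FT (limma adjusted p = 0.00412 and 0.000418). At 1 week after FT the libraries were at 171, 305 and 300 CPM, a log2 difference of -1.01, which was -0.73 and no longer called without the replicate that stood apart.

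Slc2a1 and Slc2a3, which encode the glucose transporters GLUT1 and GLUT3, were not called in any comparison. Slc2a1 was at 63.4 ± 12.8 CPM in NI (SD, n = 3) and 117 ± 19.3 CPM at 2 weeks after FT, a log2 difference of 0.89 that had an adjusted p of 0.00351 in limma but stayed under 2-fold. Per kilobase of annotated exon, mean levels in NI were 150.0 CPM for Slc2a5, 18.1 for Slc2a1, 6.98 for Slc2a6 and 0.869 for Slc2a3. At 2 weeks after FT they were 57.0, 33.5, 35.5 and 1.46 CPM per kilobase, so the span between the first 3 was narrower.

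The hexokinases, which trap glucose as glucose 6-phosphate, were not called in any of the comparisons with NI. Hk2 was at 294, 257 and 301 CPM in NI, 218, 234 and 277 CPM 72 h post-HS and 191, 331 and 266 CPM 72 h post-FT, and the groups overlapped. Hk3 was at 106, 110 and 112 CPM in NI and at 193, 155 and 151 CPM 72 h post-HS, which do not overlap, with a log2 difference of 0.59 and a limma adjusted p of 0.0475. Hk1 was lowest of the 3, at 21.9, 14.4 and 17.8 CPM in NI and 24.4, 30.6 and 22.1 CPM 72 h post-HS. Per kilobase, Hk2 led in NI with 47.6 CPM, then Hk3 with 29.7 and Hk1 with 2.11. With columns set to the same total, no hexokinase was called either, and at 72 h Hk1 and Hk3 differed from NI by 0.00 to 0.09 on the log2 scale and Hk2 by -0.74 and -0.62.

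In upper glycolysis the enzymes on either side of the phosphofructokinase step rose. Gpi1, glucose-6-phosphate isomerase, was at 212, 208 and 190 CPM in NI and at 610, 521 and 477 CPM 72 h post-HS. Aldoa, the aldolase that splits the 6-carbon sugar, was at 447, 464 and 417 CPM in NI, 1640, 1650 and 1200 CPM 72 h post-HS and 1450, 976 and 1230 CPM 72 h post-FT. Tpi1, triosephosphate isomerase, was at 108, 98.7 and 102 CPM in NI and 323, 333 and 235 CPM 72 h post-HS. For these 3 genes every 72 h library was above every NI library. The log2 differences 72 h post-HS were 1.39 ± 0.19, 1.74 ± 0.22 and 1.51 ± 0.17 (SE, limma adjusted p = 1.64e-05, 4.68e-06 and 8.89e-07), and Aldoa was also called at 2 weeks after HS and at 1 and 2 weeks after FT.

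Phosphofructokinase, the committed step, has 3 subunit genes, and none was called against NI. Pfkl was at 69.3, 91.2 and 68.2 CPM in NI and 129, 172 and 136 CPM 72 h post-HS, which do not overlap, with a log2 difference of 0.93 and a limma adjusted p of 0.00251. Pfkm was at 33.1, 28.7 and 20.9 CPM in NI and 27.5, 23.3 and 17.6 CPM 72 h post-HS, which overlap. Pfkp was at 14.2, 7.46 and 7.19 CPM in NI and 31.2, 12.9 and 13 CPM 72 h post-FT, and its 72 h mean there was raised by 1 library. The bifunctional regulators Pfkfb2, Pfkfb3 and Pfkfb4 had log2 differences between -0.33 and 0.49 in the 6 comparisons with NI and were not called.

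Lower glycolysis held the most abundant rises. Gapdh, glyceraldehyde-3-phosphate dehydrogenase, was at 312, 317 and 373 CPM in NI, 1390, 1590 and 1020 CPM 72 h post-HS and 1200, 1450 and 1060 CPM 72 h post-FT. Pgk1, phosphoglycerate kinase, was at 93, 85.6 and 71.0 CPM in NI, 435, 352 and 309 CPM 72 h post-HS and 378, 324 and 318 CPM 72 h post-FT. Pkm, the pyruvate kinase gene, was at 450, 440 and 388 CPM in NI, 2740, 1950 and 1810 CPM 72 h post-HS and 2460, 1660 and 1860 CPM 72 h post-FT. None of the 72 h libraries overlapped NI for these genes.

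The fitted rise was largest for Pkm, at 2.33 ± 0.26 after HS and 2.21 ± 0.26 after FT on the log2 scale (limma adjusted p = 1.05e-06 and 2.23e-06). Pgk1 followed at 2.12 and 2.03 and Gapdh at 1.98 and 1.88. Pgam1, phosphoglycerate mutase, was at 70.3, 62.2 and 51.3 CPM in NI and 234, 173 and 172 CPM 72 h post-HS, a log2 difference of 1.64. At 2 weeks after FT, Pkm, Pgk1 and Gapdh were still called, with log2 differences of 1.56, 1.38 and 1.16. At 1 week the calls were less steady, since the 3 genes lay at log2 differences of 1.01 to 1.02 after FT, and of these Gapdh fell to 0.99 without the library that stood apart while Pgk1 and Pkm were at 1.22 and 1.29. Gapdh, Pgk1, Pgam1, Ldha and Aldoa each have 2 pseudogenes named as such in GENCODE vM21, while Pkm has 0, and reads that match both could have been lost or split in counting.

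The enolase step could be read least well. Eno1 was at 2.50, 1.67 and 1.92 CPM in NI, 7.23, 5.37 and 6.97 CPM 72 h post-HS and 9.86, 2.34 and 5.43 CPM 72 h post-FT, and it was called at both (log2 difference 1.47 and 1.16). After FT its libraries overlapped NI. Its level in NI per kilobase was 0.378 CPM beside 30.9 for Pgam1 and 85.2 for Pkm, the steps before and after it, and a near-identical copy, Gm5506 (Eno1b), was counted apart at 0.834, 0.515 and 0.767 CPM in NI, so the row is an uncertain measure of enolase 1 RNA.

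Eno2, the neuronal enolase, moved the other way. It was at 9.59, 5.66 and 5.85 CPM in NI, 2.25, 2.26 and 2.46 CPM 72 h post-HS and 1.62, 1.17 and 2.32 CPM 72 h post-FT, with no overlap. It fell by 1.38 and by 1.77 on the log2 scale (limma adjusted p = 0.00271 and 0.000326) and was the only member called lower at 72 h, although with all columns set to the same total Slc2a5 was called lower there too, and Rpia after HS. The 8 neuronal markers listed summed to 45.6 to 81.8 CPM in NI, 20.9 to 44.3 CPM 72 h post-HS and 19 to 31.3 CPM 72 h post-FT, with 3 of 8 called lower in each and none at 0 in all libraries of a group. Their part in the Eno2 result was not tested. Later the marker sums were 25.4 to 29.3 CPM (1 week) and 17.5 to 41.3 CPM (2 weeks) after HS, with Eno2 at 2.04 to 6.4 and 6.63 to 7.33 CPM. After FT they were 21.5 to 25.3 and 16.5 to 39.4 CPM, with Eno2 at 3.63 to 6.19 and 3.89 to 6.01 CPM.

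**Figure D2:**
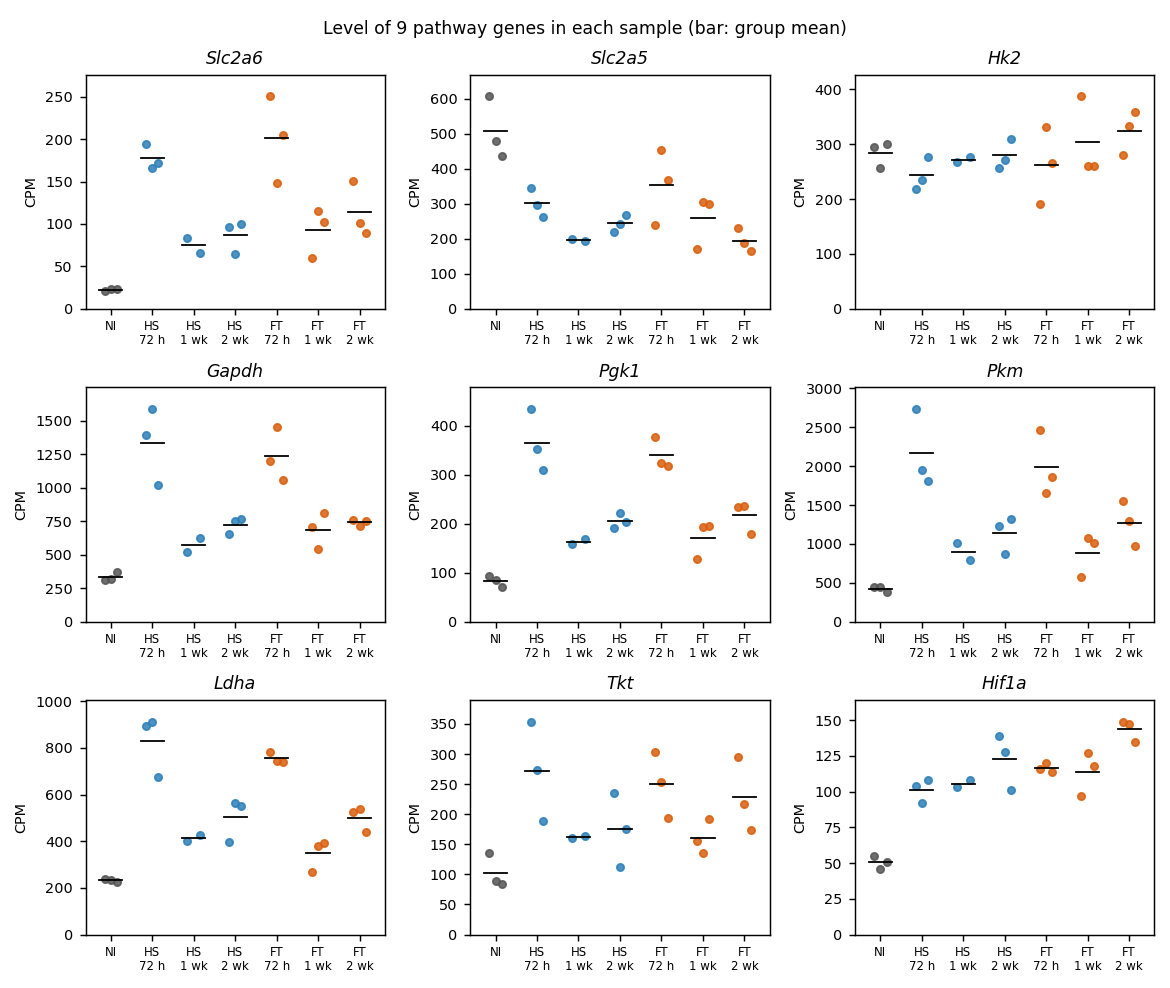
Level in CPM of 9 of the genes in each of the 20 libraries, by group, with a bar at the group mean and axes that start at 0. Pkm, Pgk1, Gapdh and Ldha peak at 72 h after both lesions, Hk2 overlaps NI at 72 h, and Hif1a is above NI in every injured library.

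Of the 2 lactate dehydrogenase genes, only Ldha, which favours lactate formation, was called. It was at 236, 235 and 227 CPM in NI, 896, 913 and 677 CPM 72 h post-HS and 782, 744 and 741 CPM 72 h post-FT, with no overlap. The log2 difference was 1.82 ± 0.19 after HS and 1.70 ± 0.19 after FT (limma adjusted p = 3.33e-07 and 9.21e-07), and near 1.10 at 2 weeks in both. Ldhb was more abundant per kilobase, with 401 CPM in NI beside 70.3 for Ldha, and its log2 difference of 0.83 72 h post-HS (limma adjusted p = 0.00536) stayed under 2-fold. The lactate carriers Slc16a1 and Slc16a3 (MCT1 and MCT4) were at 17.0 and 13.7 CPM in NI and were not called at any time.

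In the pentose phosphate pathway 4 of 7 genes were called higher 72 h post-HS (9.08% of all genes) and 2 after FT (8.14%). Tkt, transketolase, was at 135, 88.2 and 83.2 CPM in NI, 354, 274 and 188 CPM 72 h post-HS and 304, 253 and 193 CPM 72 h post-FT, with log2 differences of 1.40 ± 0.28 and 1.30 ± 0.28 (limma adjusted p = 0.000688 and 0.00147). Rpe, ribulose-phosphate epimerase, was at 22.4, 22.9 and 18.4 CPM in NI and 62.8, 55.0 and 47.6 CPM 72 h post-HS, a log2 difference of 1.35. The groups did not overlap for either gene.

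Taldo1, transaldolase, was at 234, 181 and 165 CPM in NI and 465, 495 and 333 CPM 72 h post-HS. It had a log2 difference of 1.15 after HS and 0.94 after FT, where it stayed under 2-fold. G6pdx, the NADPH-making entry enzyme, was at 62.9, 59.3 and 57.6 CPM in NI, 145, 120 and 103 CPM 72 h post-HS and 112, 105 and 110 CPM 72 h post-FT, with log2 differences of 1.01 and 0.86. Pgd, the next dehydrogenase, had differences of 1.00 and 0.96 with adjusted p of 0.00197 and 0.00308 in limma, just under 2-fold. Pgls and Rpia, at 7.51 and 6.66 CPM in NI, were not called. At 1 week none of the 7 genes was called, and at 2 weeks Tkt alone, after FT (1.16).

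**Figure D3:**
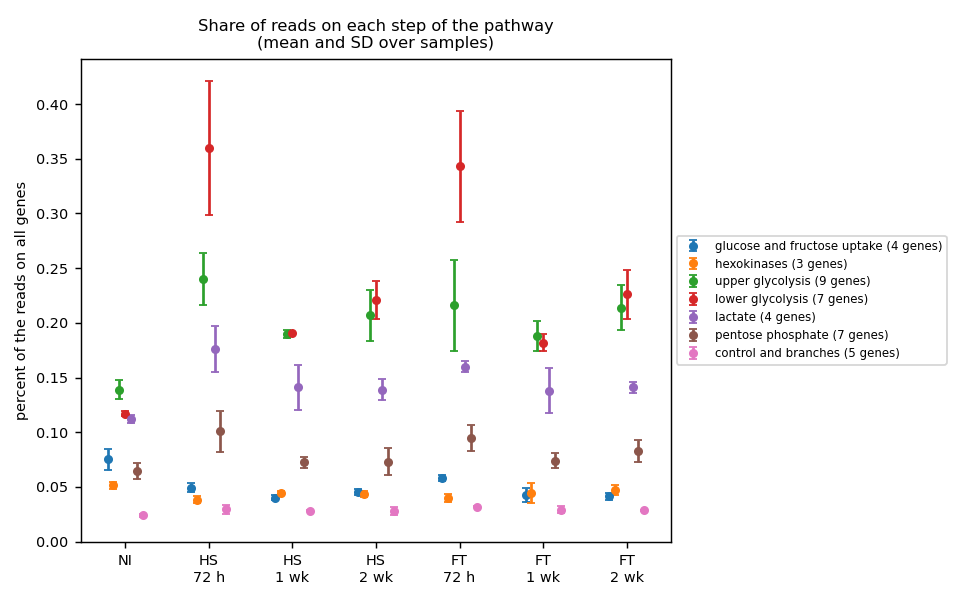
Mean percent of the reads on all genes that fell on each group of genes (points, one colour per group of genes) in NI and the 6 injured groups, with the SD over libraries as bars. Lower glycolysis goes from 0.117% in NI to 0.36% 72 h post-HS and 0.343% after FT, while hexokinases go from 0.0517% in NI to 0.0385% and 0.0399%, with every 72 h library below every NI library. Deposited column totals are higher in injured libraries, so a share can fall where CPM does not.

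A share of reads does not depend on the scale of a column. It falls where CPM holds while the column total rises, and every injured column total was above every NI total. All 39 genes together took 0.584% ± 0.0188 (SD, n = 3) of the reads in NI, 0.995% ± 0.116 72 h post-HS and 0.944% ± 0.0967 72 h post-FT. The lowest 72 h library, at 0.87%, was above the highest NI library, at 0.6%. At 1 week the share was 0.707% and 0.698%, and at 2 weeks 0.756% and 0.781%. By role, lower glycolysis gave most of the added share, and uptake genes went from 0.0753% ± 0.00964 in NI to 0.0494% ± 0.00416 and 0.0584% ± 0.0027 at 72 h, most of it Slc2a5. In CPM, the means of Slc2a1, Slc2a3 and Slc2a6 at 72 h were above NI and that of Slc2a5 below. Hexokinase means at 72 h (HS, then FT) were 25.7 and 25.2 CPM for Hk1 (NI 18) and 166 and 153 for Hk3 (NI 109). For Hk2 they were 243 and 263 CPM (NI 284), so the lower hexokinase share was not a fall in CPM of all 3 genes.

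Among regulators and side branches, Hif1a, which encodes the oxygen-controlled subunit of HIF-1, was above NI at every time. It was at 55.1, 45.9 and 50.9 CPM in NI, 104, 91.9 and 108 CPM 72 h post-HS, 116, 120 and 114 CPM 72 h post-FT and 149, 147 and 135 CPM at 2 weeks after FT. Every injured library was above every NI library. The log2 difference was 0.99 72 h post-HS, just under 2-fold, and after FT it was 1.2 (72 h), 1.16 (1 week) and 1.5 ± 0.16 (SE, 2 weeks) (limma adjusted p = 7.98e-07 at 2 weeks). With columns set to the same total its differences were positive in all 6 comparisons, between 0.49 and 1.1, and only the one at 2 weeks after FT was called.

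Pdha1, the pyruvate dehydrogenase subunit that passes pyruvate to the mitochondrion, was at 47.1, 35.4 and 28.4 CPM in NI and 112, 86.7 and 68.7 CPM 72 h post-HS, and was called at 72 h after both lesions (1.26 and 1.15). Its inhibitory kinase gene Pdk1 had log2 differences between -0.06 and 0.21 and was not called. Pgm2 was called at 72 h (1.03 and 1.16) and Pgm1 was not (0.71 and 0.82), but the symbols of these phosphoglucomutases have been exchanged between annotation releases, so which enzyme each row counts is not certain. Bpgm was at 16.3 CPM in NI, with log2 differences between -0.14 and 0.28.

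Comparison of HS with FT addressed lesion severity. No member was called at 72 h (0% of all genes), 1 week (0%) or 2 weeks (0%). At an unadjusted p under 0.05 in limma there were 0 members at each time, beside 505, 724 and 438 of the 16810 genes. Those are small shares of all genes, so 0 of 39 members was near the background. The FT minus HS log2 differences of the 39 genes lay from -0.39 to 0.52 (72 h), from -0.58 to 0.35 (1 week) and from -0.51 to 0.41 (2 weeks), and 16, 22 and 31 of the 39 were positive, with medians of -0.06, 0.04 and 0.10 against -0.01, -0.01 and 0.01 over all genes. edgeR and DESeq2 on the recovered reads also called 0 members. For Slc2a6 at 2 weeks, the libraries at 96.2, 64.3 and 99.8 CPM after HS overlapped those at 151, 101 and 89.9 CPM after FT. The SE of these differences was 0.155 to 0.416 on the log2 scale. A call needed 2-fold and an adjusted p under 0.05, so differences between severities well above the SE could also go uncalled at this number of libraries.

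Comparison of later times with 72 h asked how long the rise lasted. After HS, 5 members were called lower at 1 week than at 72 h (4.07% of all genes) and none higher (1.95%), and 3 were lower (3.37%) and 1 higher (1.37%) at 2 weeks. After FT, 6 were lower at 1 week (2.62%) and 1 higher (0.827%), and 0 were lower (2.68%) and 1 higher (1.13%) at 2 weeks. At an unadjusted p under 0.05 in limma, 18 of the 39 members and 3286 of all 16810 genes differed in either direction at 2 weeks after FT. In that comparison 1 member was called lower by DESeq2 and 0 by edgeR, with no share of all genes given for these methods. The members' median was -0.42, -0.44, -0.42 and -0.19 in these 4 comparisons, against 0.03 to 0.07 over all genes.

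Pkm fell by 1.25 on the log2 scale from 72 h to 1 week after HS and by 1.2 after FT (limma adjusted p = 0.00816 and 0.00646), and Slc2a6 by 1.25 and 1.14. Ldha fell by 1.14 after FT, from 782, 744 and 741 CPM to 269, 380 and 394 CPM. The 3 later calls higher were all Eno2. The calls at 1 week after FT depended on replicate 1 of that group, since without it none of the 6 members was called lower. The 6 differences without it lay between -0.81 and -1.04, against -1.01 to -1.39 with it. Of these, Ldha (-0.96), Pkm (-0.91), Slc2a6 (-0.86) and Pgk1 (-0.81) kept a limma adjusted p under 0.05 (0.00153, 0.0274, 0.0344 and 0.00613) and lay under 2-fold, while Pfkp and Eno1 had adjusted p of 0.0729 and 0.134. After HS, leaving out single libraries gave 3 to 9 calls at 1 week and 0 to 5 at 2 weeks.

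Proliferation markers were also highest at 72 h. All 10 listed were called higher at 72 h after both lesions, with medians of 3.77 and 3.57 on the log2 scale, and their sum was 115 to 129 CPM in NI, 802 to 1310 CPM 72 h post-HS, 771 to 986 CPM 72 h post-FT and 129 to 171 CPM at 1 week. None was at 0 in all libraries of a group. Of the 9 monocyte markers, 4 were called higher 72 h post-HS and 6 after FT. The part of dividing cells or of monocytes in the rise of glycolytic genes was not tested.

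Ratios of related genes within a library do not depend on its scaling. They were compared between the injured libraries of both lesions at one time and the 3 NI libraries with a two-sided exact permutation test, for 8 pairs at 3 times (24 tests), and p cannot go below 0.0238 with 6 against 3 or 0.0357 with 5 against 3. The smallest adjusted p was 0.0571, so no ratio passed after Benjamini-Hochberg adjustment, and the values below are given with that limit.

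The ratio of Slc2a6 to Slc2a5 was 0.0347 to 0.0534 in NI and 0.327 to 1.04 at 72 h, 0.338 to 0.424 at 1 week and 0.266 to 0.653 at 2 weeks, with no overlap at any time. The ratio of Slc2a1 to Slc2a5 was 0.121 to 0.129 in NI and 0.152 to 0.374, 0.275 to 0.513 and 0.393 to 0.729 at the 3 times, also without overlap. The ratio of Ldha to Ldhb was 0.341 to 0.392 in NI, 0.65 to 0.854 at 72 h and 0.507 to 0.689 at 2 weeks, but at 1 week, with 0.287 to 0.535, it overlapped NI. The mean log2 ratio of the first pair was above that of NI by 3.68, 3.01 and 3.31 at the 3 successive times.

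Some ratios fell. G6pdx to Gpi1, entry to the pentose phosphate branch over the next step of glycolysis, was 0.287 to 0.305 in NI and 0.196 to 0.247 at 72 h, 0.155 to 0.214 at 1 week and 0.156 to 0.254 at 2 weeks. Pdk1 to Pdha1 was 1.37 to 2.24 in NI and 0.612 to 1.08 at 72 h. Hk2 to Hk1 was 13.2 to 17.3 in NI and 6.91 to 13.1 at 72 h, and overlapped NI later. Slc16a3 to Slc16a1 overlapped NI at all 3 times. Pfkp to Pfkl was 0.0868 to 0.21 in NI and 0.0513 to 0.0827 at 1 week, without overlap (exact permutation p = 0.0357, adjusted 0.0612), and it overlapped NI at 72 h and 2 weeks. The unadjusted exact permutation p for G6pdx to Gpi1 was 0.0238, 0.0357 and 0.0238, each the smallest the design allows.

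**Figure D4:**
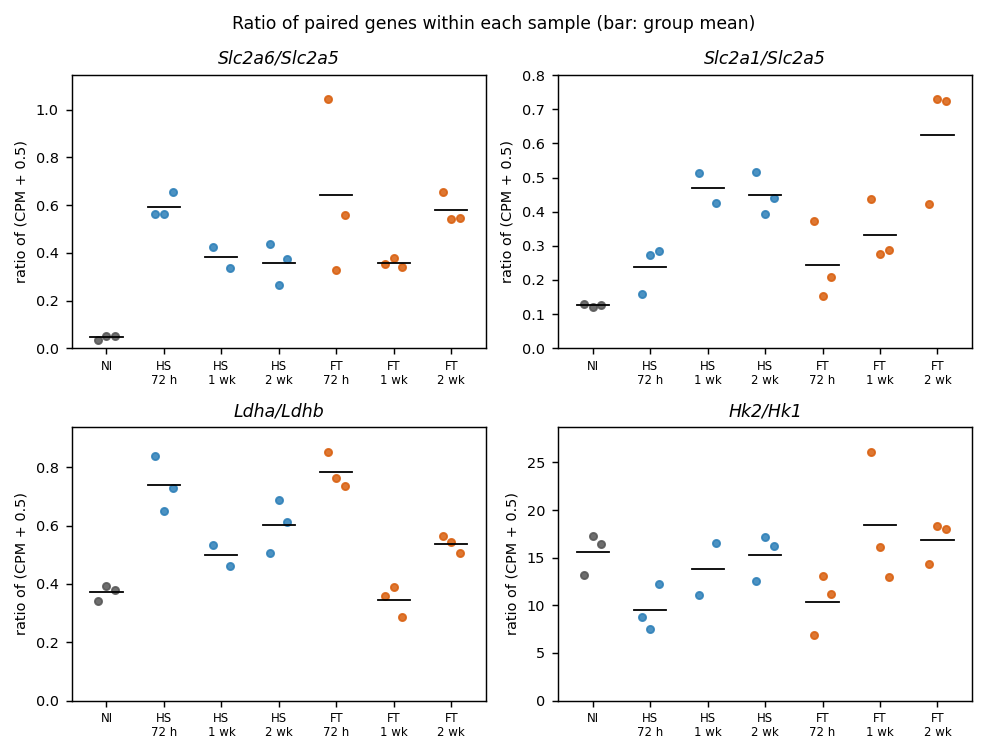
Ratio of (CPM + 0.5) of 4 pairs of genes in each of the 20 libraries, by group, with a bar at the group mean and axes that start at 0. The Slc2a6/Slc2a5 and Slc2a1/Slc2a5 ratios lie above NI in every injured library, and Hk2/Hk1 lies below NI at 72 h only.

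A further list took in more genes of the same routes. Of its 43 genes of glycolysis, the pentose phosphate pathway and the serine branch, 37 were in the table, and 4 were called higher 72 h post-HS and 3 after FT (9.08% and 8.14% of all genes), with list medians of -0.11 and -0.05, against -0.11 and -0.09 over all genes, so the list was near the background. Those called included Psat1 and Phgdh, enzymes that divert 3-phosphoglycerate to serine. Psat1 was at 28.8 CPM in NI, 199 CPM 72 h post-HS and 210 CPM after FT (log2 difference 2.80 and 2.90) and was called in all 6 comparisons with NI. Phgdh had differences of 1.63 and 1.53 at 72 h.

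Aldoc, the aldolase gene typical of astrocytes, was at 170.0 CPM in NI and 26.2 CPM at 2 weeks after FT and fell by 2.92 on the log2 scale (limma adjusted p = 0.00034). It was also called lower at 2 weeks after HS and 1 week after FT. The 8 astrocyte markers listed summed to 346 to 578 CPM in NI and 184 to 262 CPM at 2 weeks after FT, with 4 of 8 called lower and none at 0 in all libraries of a group, and their part in the Aldoc result was not tested.

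Of the 15 genes of glycogen and galactose metabolism, 4 were called higher 72 h post-HS and 4 after FT, beside 9.08% and 8.14% of all genes. Gyg, glycogenin, was at 37.8 CPM in NI and 197 and 198 CPM at 72 h (log2 difference 2.35 and 2.37), and Pygl, a glycogen phosphorylase, was at 13.4 CPM in NI and 52.0 and 63.1 CPM (1.92 and 2.19). Both were called in all 6 comparisons. Pygm, the muscle phosphorylase, was lower at 2 weeks after FT (-2.07).

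Of 16 genes of pyruvate entry into mitochondria, 2 were called higher at 72 h after each lesion, near the background of 9.08% and 8.14% of all genes. They were Mpc1, a subunit of the mitochondrial pyruvate carrier, at 180 CPM in NI and 422 and 381 CPM at 72 h, and Me2, a mitochondrial malic enzyme. None was called at 1 or 2 weeks. Of 12 regulators of HIF-1 none was called at 72 h or 1 week, and Egln3, a HIF prolyl hydroxylase, was higher at 2 weeks (1.25 after HS and 1.59 after FT) at a level of 4.81 and 6.23 CPM.

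Of 20 other known hypoxia targets, 5 were called higher (9.08% of all genes) and 1 lower (4.31%) 72 h post-HS and 4 higher after FT (8.14%), with list medians of -0.10 and 0.25. Anxa2 had the largest rise, from 14 CPM in NI to 198 and 209 CPM (log2 difference 3.75 and 3.83). Car9, carbonic anhydrase 9, went from 1.86 CPM to 8.69 and 5.92 CPM (2.00 and 1.49). Ddit4, a stress-induced inhibitor of mTORC1 signalling, was lower at 2 weeks, by log2 differences of -1.90 after HS and -1.53 after FT.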

How the data were processed

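RNA of sorted microglia was amplified and sequenced by the authors in 20 libraries of 7 groups. Per the labels, reads were handled with TopHat2 2.0.9, HTSeq 0.5.4p3 and edgeR 3.3.6 on mm10/GRCm38, and per the study's methods a gene needed 10 reads in 2 replicates to stay in the table. Strandedness is not given in the sources used here. The deposited signal values are gene read counts on a CPM scale, which the authors describe as normalised by library size. Their column totals differ and some exceed those of plain CPM, so a further factor per library is likely in them. Each value was a whole multiple of 1 step per column within 0.01 step (100% of values), which gave the whole reads per library (3872918 to 34099232) used for count tests.

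For all 16810 genes, log2(CPM + 0.5) was modelled by group means alone in limma 3.58.1 (R 4.3.3), its prior variance following the mean level, and p-values were adjusted by Benjamini-Hochberg. Comparisons were made of every lesion group against NI, between both lesions at equal times, and of 1 and 2 weeks against 72 h. Ratios were tested by exact permutation in scipy 1.17.1. Exon lengths and positions come from GENCODE vM21 (39 of 39 genes matched), promoters from RefSeq. Scripts for the fits were tested on simulated data. The alternatives tried were another added value (0.1 or 1 CPM), a filter of 1 CPM in 2 samples, median-of-ratios, quantile and single-total scaling, only the 2 groups compared, no fold limit, a replicate block, edgeR 4.0.16 and DESeq2 1.42.0 on the whole reads, and leaving out each library.

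All members could be named, with values per library for those called against NI and for the hexokinases, the phosphofructokinases, Hif1a, G6pdx and Tkt. From other lists the largest called changes were named. Members and lists were chosen with earlier results of these data known. Marker genes of other cells were also read: neutrophil markers (10) summed to 779 to 838 CPM in NI and 465 to 657 CPM 72 h post-HS, endothelial markers (8) to 62.5 to 95.2 CPM in NI, oligodendrocyte markers (8) to 1250 to 2520 CPM in NI, and 4 of 10 erythroid markers in the table to 20.9 to 27.2 CPM, the others being not analysed here. Most of the neutrophil sum was Csf3r, at a mean of 728 CPM in NI and 559 CPM 72 h post-HS. The next highest in NI, S100a8, was at 18.95 and 3.83 CPM.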

Additional observations from a re-analysis of the deposited data

Results flagged for a closer look

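Each of these 17 results was set apart because a test of the difference between 2 times after the same lesion passed the threshold (limma adjusted p under 0.05 and at least 2-fold). They are log2 differences of (CPM + 0.5), later time minus 72 h. From 72 h to 1 week after HS they were -1.25 for Slc2a6, -1.2 for Gapdh, -1.14 for Pgk1, -1.31 for Eno1 and -1.25 for Pkm. From 72 h to 2 weeks after HS they were -1.05 for Slc2a6, -1.24 for Eno1, 1.42 for Eno2 and -1.03 for Rpe.

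From 72 h to 1 week after FT they were -1.14 for Slc2a6, -1.33 for Pfkp, -1.01 for Pgk1, -1.39 for Eno1, 1.21 for Eno2, -1.2 for Pkm and -1.14 for Ldha. From 72 h to 2 weeks after FT the only one was 1.31 for Eno2. Replicate 1 of FT at 1 week stood apart from its group, and without it the 6 falls were -0.86 (Slc2a6), -1.04 (Pfkp), -0.81 (Pgk1), -1 (Eno1), -0.91 (Pkm) and -0.96 (Ldha), with none called. The Eno1 row is low and has a near-identical copy counted apart, which limits its 3 values.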

How the results depend on the processing

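Median-of-ratios scaling called 18 (HS) and 15 (FT) members higher than NI at 72 h, beside 9.49% and 8.26% of all genes. It kept 62 of the 63 calls against NI. With quantile normalization the members called higher than NI were 10 (72 h, HS), 4 (2 weeks, HS), 8 (72 h, FT), 2 (1 week, FT) and 4 (2 weeks, FT). The shares of all genes were 6.61%, 2.31%, 6.18%, 2.42% and 2.86%. Members lower than at 72 h were 0 (1 week, HS), 0 (2 weeks, HS) and 2 (1 week, FT), beside 483, 475 and 393 of all genes. With columns scaled to 1 total the members called higher than NI numbered 9, 1 and 2 for HS, then 6, 1 and 3 for FT (72 h, 1 week and 2 weeks), and those lower than at 72 h after HS were 0 and 0. The shares of all genes called higher than NI were 3.68%, 1.29% and 1.45% for HS, then 3.69%, 1.4% and 1.71% for FT. With that scaling the share of higher among all called genes went from 67.8%, 77.9%, 75.3%, 66.6%, 70.5% and 72.2% (HS at 72 h, 1 week and 2 weeks, then FT) to 16.2%, 53.3%, 36%, 18.5%, 26% and 25.9%, and with quantile normalization to 58%, 65.5%, 71.9%, 58.1%, 62.7% and 64.4%. The median over all genes 72 h after injury was then -0.52 (HS) and -0.48 (FT) on the log2 scale, against -0.11 and -0.09 as deposited. From 72 h to 1 and 2 weeks after HS, 328 and 230 of all genes were higher and 685 and 567 lower as deposited, against 879 and 409 higher and 329 and 392 lower with 1 total.

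With only the 2 groups compared, 1 member was lower at 1 week than at 72 h after FT. Without a fold limit 6 and 11 members were higher than NI at 1 and 2 weeks after HS, beside 2.07% and 3.84% of all genes. Members lower than at 72 h then numbered 13 and 12 (HS) and 10 and 5 (FT). DESeq2 called 9 lower at 1 week after HS and 1 lower at 2 weeks after FT. Shares of all genes are not given here for the 2-group, DESeq2 or lower-than-72 h counts, so these show only how the member counts moved. The cause of these changes in counts was not tested.

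Leaving out 1 library at a time gave 14 to 18, 2 to 3 and 7 to 9 members higher than NI after HS and 13 to 19, 2 to 8 and 9 to 12 after FT at the 3 times, with 2 without replicate 3 of FT at 1 week. Those lower than at 72 h were 3 to 9 (1 week, HS), 0 to 5 (2 weeks, HS), 0 to 7 (1 week, FT) and 0 to 1 (2 weeks, FT). The count was 0 at 1 week after FT without replicate 1 of that group (the differences were then -0.81 to -1.04) and 2 without replicate 1 of FT at 72 h, 3 and 0 at 1 and 2 weeks after HS without replicate 1 of HS at 72 h, 9 and 5 without replicate 3, and at 2 weeks after HS 1 without replicate 2 of HS at 72 h, 1 without replicate 1 and 0 without replicate 2 of HS at 2 weeks. It was 1 at 2 weeks after FT without replicate 1 or 2 of FT at 72 h or replicate 1 of FT at 2 weeks. Shares of all genes are not given for these counts with 1 library left out.

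With the replicate number as a replicate block, the members higher at 1 week after HS went from 3 to 2 and those lower than at 72 h from 5 to 6, with no other count changed. No label says what the numbers mark, so whether they pair libraries is not known. The correlations of same-numbered libraries ran from -0.426 to 0.444, and 20 of 57 were over 0.1. Of the 20 libraries, 9 correlated best with their own number. With 2 or 3 libraries a group these values cannot settle it.

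Of the 63 pairs of a called member and a comparison with NI, 25 kept direction and call under every alternative, and none reversed. Another 24 lost the call under quantile or single-total scaling and under no other alternative. The remaining pairs lost it under at least 1 other alternative. Counted over all 63 pairs, single-total scaling took the call from 35 and quantile normalization from 27. The number of libraries, 2 or 3 a group, limits what smaller changes can show.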
